A study of Mus musculus with 8 samples.

Results

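Fabp3, Fabp5, Fabp7, Apoe, Clu and Acsbg1 encode proteins that carry, activate or export lipids, and several of them are used as marks of glial cells. These 6 genes were taken by name, and all 6 were found among 20512 named genes of the exon table and 18655 named genes of the intron table. They were read in neural progenitor cells (NPC) and in the embryonic stem cells (ESC) from which those were derived. Both come from the hybrid mouse line F1-21.6 with a 129Sv-Cast/EiJ background, so every group carries the genome of a strain cross. The NPC samples are 1 clone obtained by neural differentiation, and the ESC grew on mitomycin-treated mouse embryonic fibroblasts with serum and leukaemia inhibitory factor. Each cell type had 2 biological replicates with 2 technical libraries each, which makes 8 libraries of total RNA freed of ribosomal RNA. The labels do not say what separates the biological replicates, so p-values measure only the spread between these samples. They also do not say whether the authors' exon test took technical libraries as separate samples. If it did, its p-values measure technical spread as well.

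Fatty acids and sterols dissolve poorly in water, and cells move them on protein carriers. Fatty acid binding proteins (FABP) are small cytosolic barrels that hold 1 fatty acid chain or a related lipid and take it to membranes, enzymes or nuclear receptors. Fabp7, the brain form, is a mark of radial glia, the progenitors that line the embryonic brain. Fabp5 is the epidermal form, which is also found in neural cells, and Fabp3 is the heart form, best known from muscle. Acsbg1 is an acyl-CoA synthetase of brain and other tissues that activates long-chain fatty acids by joining them to coenzyme A. Apoe and Clu (apolipoprotein J) are secreted apolipoproteins, which astrocytes put into the lipid particles of the brain, and Clu also binds unfolded proteins outside cells.

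The coding sequences of the FABP genes show how far these paralogs have drifted apart, which bears on whether short reads can tell them apart. The first 120 coding bases are shown from the GENCODE M21 transcripts of GRCm38. In Fabp5 and Fabp3, capitals mark a base equal to the aligned base of Fabp7, and in Fabp7 they mark a base equal in both others.
Fabp7: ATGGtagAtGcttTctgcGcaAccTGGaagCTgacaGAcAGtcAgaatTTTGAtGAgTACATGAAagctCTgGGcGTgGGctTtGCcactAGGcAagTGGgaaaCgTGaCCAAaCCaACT
Fabp5: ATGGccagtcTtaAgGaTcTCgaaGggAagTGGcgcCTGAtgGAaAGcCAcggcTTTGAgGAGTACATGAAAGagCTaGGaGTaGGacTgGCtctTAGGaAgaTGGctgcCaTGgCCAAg
Fabp3: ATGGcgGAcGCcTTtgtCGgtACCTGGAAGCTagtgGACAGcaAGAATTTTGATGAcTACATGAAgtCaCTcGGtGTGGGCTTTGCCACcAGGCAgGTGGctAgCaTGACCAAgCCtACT
Over the whole coding sequence, Fabp7 shared 55.4% of aligned bases with Fabp5 and 66.4% with Fabp3, and Fabp5 shared 56.2% with Fabp3. The longest stretch without a mismatch between any pair of these transcripts was 20 bases, between Fabp7 and Fabp3, which is shorter than the 50-base reads. No 50-base stretch of the Fabp7, Apoe, Clu or Acsbg1 transcripts recurred in a transcript of another annotated gene. By contrast, 21.1% of the 50-base stretches of Fabp5 recurred in other genes, most of them in Gm6166 and Gm14328, and 37.3% of those of Fabp3, most of them in Fabp3-ps1. The sources do not tell how reads from such copies were counted, so the exon levels of Fabp5 and Fabp3 are uncertain to that extent.

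In NPC, Fabp7 was among the most abundant of all transcripts, Acsbg1 and Fabp5 were far higher than in ESC, and Fabp3 was close to silent. Apoe was abundant in both cell types, and its exon level was higher in NPC by a smaller fold (2.77). The exon values are RPKM, read counts scaled by exon length and library size, and the authors give 1 pooled value per cell type, so they carry no replicate spread. In bulk RNA, fewer cells that use a gene and less of its RNA per cell cannot be told apart. By the authors' deposited table, 4 of the 6 genes were higher in NPC and 2 were lower at an adjusted p of 0.05. Among all 12509 tested genes, those named with a mean of at least 1 RPKM, 66.2% were called, 32.3% higher and 33.9% lower, so being called is common in this contrast. In the deposited table, 3 of the 6 genes were called with an absolute log2 fold change of at least 5, against 6.47% of the tested genes. The 6 genes were chosen with earlier results of these data known. These shares therefore do not show that lipid carriers change more than other genes.

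**Figure D1:**
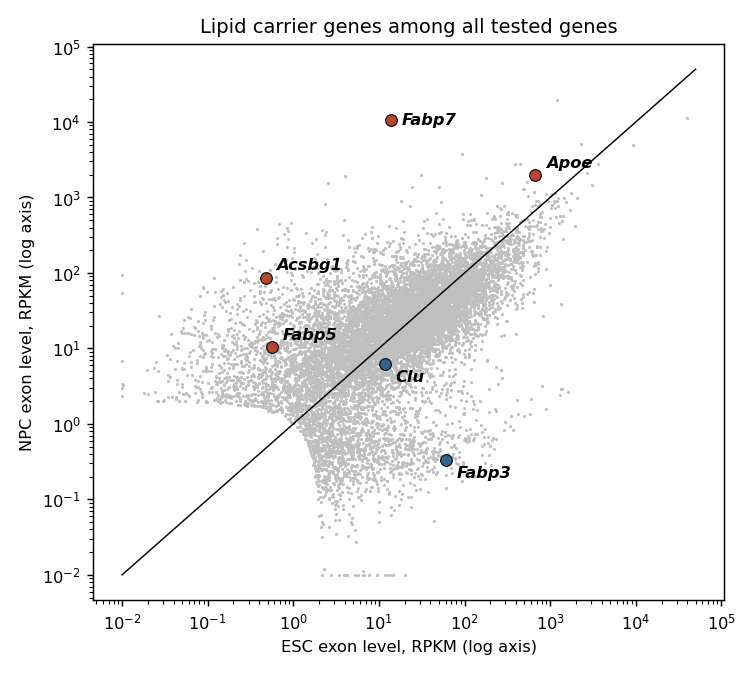
Exon level in NPC against exon level in ESC, in RPKM on log axes, for all 12509 tested genes (grey) and the 6 lipid carrier genes (red, higher in NPC; blue, lower in NPC). Fabp7 at 10684 RPKM in NPC and 13.7 in ESC lies above the cloud, the line marks equal levels, and values below 0.01 RPKM are drawn at 0.01.

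Fabp7 lay at 10684 RPKM in NPC and 13.7 RPKM in ESC. This placed it at rank 3 in NPC and at rank 6271 in ESC among the named genes, and it took 1.81% of the summed RPKM of NPC. By the authors' deposited table its log2 fold change of NPC over ESC was 9.43, a 692-fold difference, with an adjusted p given as 0. Fabp5 was at 10.5 RPKM in NPC and 0.559 RPKM in ESC, and the deposited table gave a log2 fold change of 3.85 with adjusted p = 6.31e-07. Fabp3 ran the other way, with 0.330 RPKM in NPC and 60.7 RPKM in ESC. Its log2 fold change in the deposited table was -7.60, which is 194-fold higher in ESC (adjusted p = 1.44e-30). The NPC level of Fabp3 is close to that of olfactory, vomeronasal and taste receptor genes, which neither cell type is known to use. Those 1461 genes had a median exon level of 0.280 RPKM in NPC and 0 in ESC.

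The leading FABP gene differed between the cell types. Fabp7 made up 99.9% of the summed exon RPKM of Fabp3, Fabp5 and Fabp7 in NPC, where the sum was 10694 RPKM. In ESC that sum was 74.9 RPKM, and Fabp3 held 81.0% of it.

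Acsbg1 was at 86.9 RPKM in NPC and 0.474 RPKM in ESC. The deposited table gave it a log2 fold change of 7.35, or 163-fold (adjusted p = 1.72e-104). Apoe was abundant in both cell types, at 1999 RPKM in NPC and 663 RPKM in ESC, where it ranked 12 and 84 among all named genes. Its log2 fold change in the deposited table was 1.47 (adjusted p = 2.93e-09), a 2.77-fold rise. Clu, although a gene of mature astrocytes, was at 6.15 RPKM in NPC and 11.7 RPKM in ESC. The deposited table gave Clu a log2 fold change of -1.08 with adjusted p = 0.0165.

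Ordered by exon level per kilobase, the genes ran Fabp7, Apoe, Acsbg1, Fabp5, Clu and Fabp3 in NPC. In ESC the order was Apoe, Fabp3, Fabp7, Clu, Fabp5 and Acsbg1. Steps between neighbours in these orders have no replicate error behind them.

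**Figure D2:**
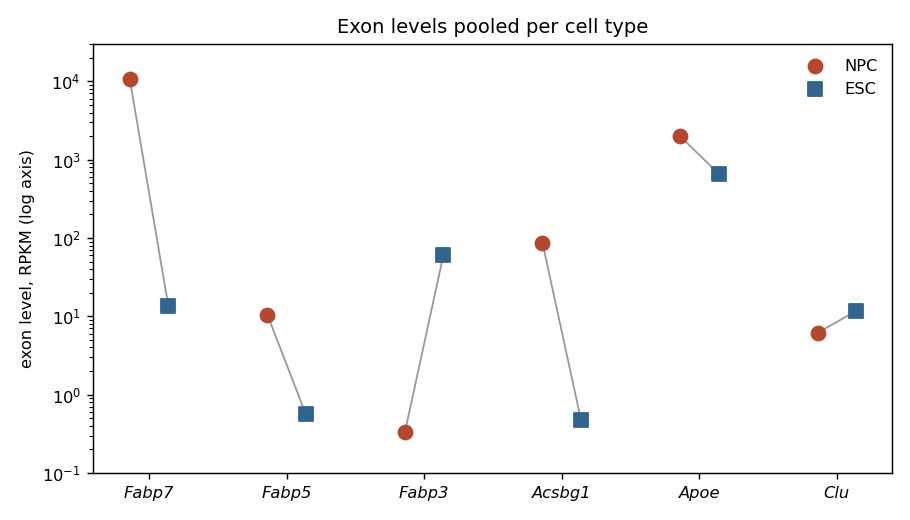
Exon level in RPKM (log axis) of each gene in NPC (red circles) and ESC (blue squares), each point the authors' pooled value of a cell type. Fabp7, Fabp5, Acsbg1 and Apoe are higher in NPC, while Fabp3 (0.330 in NPC and 60.7 in ESC) and Clu are lower.

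Introns are spliced out and degraded quickly, so reads in them report mostly on unspliced, recently made RNA, and here they come per biological replicate. The unit of the deposited intron values is not named in their header and was inferred to be RPKM, since whole reads came back from the values of all 18447 genes above 0. Summed over genes, the recovered intron reads ran from 5536926 in NPC replicate 2 to 7002635 in ESC replicate 2. These sums exceed the inferred read totals used for scaling (5186790 and 6500767 in the same replicates). They therefore cannot be taken as counts of distinct reads. NPC replicate 1 differs from the others in its floor. The median intron level of 240 sensory receptor genes was 0.748 RPKM in NPC replicate 1 and 0.0825 RPKM in NPC replicate 2, against 0.0287 RPKM in ESC replicate 1 and 0 in ESC replicate 2. Over the 8811 genes tested on introns, NPC replicate 2 lay above NPC replicate 1 by a median of 0.63 on the log2 scale, while the ESC replicates differed by a median of 0.02. Intron values near 0.7 RPKM in NPC replicate 1 are therefore at the level of genes not known to be used.

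In introns, 4 of the 6 genes had both NPC replicates above both ESC replicates and 2 had both NPC replicates below. Of all genes above 0, 42.4% were separated in the first way and 29.2% in the second. Of the 8811 tested genes, the shares were 21.9% and 55.5%. With 2 replicates against 2, a two-sided exact permutation test cannot give less than p = 0.333, so tests rest on limma fitted over all tested genes on log2(RPKM + 1), a scale on which low genes appear to change less than they do. The mean intron level over all 4 samples passed the filter of 1 RPKM for Fabp7, Fabp5, Fabp3 and Apoe. Of these 4 tested genes, 2 were called higher and 1 lower by limma at an adjusted p of 0.05. Over all tested genes 47.3% were called, 13.2% higher and 34% lower.

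Fabp7 introns were at 156 and 425 RPKM in NPC replicates 1 and 2, and at 0.439 and 0.445 RPKM in ESC replicates 1 and 2. Both NPC replicates were high, replicate 2 more than replicate 1 by 2.73-fold, and the ESC replicates were nearly equal. The means were 290 ± 190 RPKM in NPC and 0.442 ± 0.00434 RPKM in ESC (SD, n = 2 each). They rest on 8592 recovered reads in NPC and 15 in ESC. ESC replicates 1 and 2 held 7 and 8 reads (exact Poisson 95% intervals 2.81 to 14.4 and 3.45 to 15.8 reads). Counting error there is far wider than the SD of ESC. The limma log2 fold change was 7.49 (SE 0.783, adjusted p = 4.53e-05). Leaving out NPC replicate 2 gave 6.77, and leaving out NPC replicate 1 gave 8.21.

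Fabp5 introns were at 2.08 and 7.47 RPKM in NPC replicates 1 and 2, and at 1.35 and 0.901 RPKM in ESC replicates 1 and 2. The groups did not overlap, but NPC replicate 2 was 3.59-fold above NPC replicate 1, which stood closer to ESC. The limma log2 fold change was 1.27 (SE 0.374, adjusted p = 0.0157), from 156 reads in NPC and 42 in ESC. Its size depended on the NPC replicate, at 2.00 without NPC replicate 1 and 0.54 without NPC replicate 2. The call was also lost without a filter on low genes (limma adjusted p = 0.243) and without the mean-variance trend (limma adjusted p = 0.109). Without ESC replicate 1 or ESC replicate 2 the limma call was lost (adjusted p = 0.0643 and adjusted p = 0.258), and the lone ESC sample is there assumed to vary like the NPC samples.

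Fabp3 introns were at 0.857 and 0.128 RPKM in NPC replicates 1 and 2, and at 4.24 and 5.47 RPKM in ESC replicates 1 and 2. Both NPC values were low and lay close to the receptor gene level of their own replicate, and both ESC values were higher. The means were 0.492 ± 0.516 RPKM in NPC and 4.86 ± 0.867 RPKM in ESC (SD, n = 2 each), from 34 and 363 reads. The limma log2 fold change was -2.01 (SE 0.251, adjusted p = 0.000101). With a pseudocount of 0.1 it was -3.40, and without a filter on low genes limma gave adjusted p = 0.0532. On the linear scale, the ESC mean was 9.87-fold the NPC mean and 38.1-fold the value of NPC replicate 2.

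Acsbg1, with 54114 bases of intron the longest of the 6 genes, stayed below the filter of 1 RPKM. Its introns were at 1.07 and 1.05 RPKM in NPC replicates 1 and 2, and at 0.0609 and 0.00284 RPKM in ESC replicates 1 and 2. The NPC values were alike, but the receptor gene level was 0.748 RPKM in NPC replicate 1 and 0.0825 RPKM in NPC replicate 2. Much of the value of NPC replicate 1 can therefore be floor. Both NPC replicates lay above the ESC replicates. ESC replicate 2 rests on 1 read (exact Poisson 95% interval 0.0253 to 5.57 reads, counting error only). With the floor left in, the mean was 33.3-fold higher in NPC, from 630 reads in NPC and 20 in ESC. The value of NPC replicate 2 alone was 32.9-fold the ESC mean. In limma without a filter its log2 fold change was 1.00 (SE 0.136, adjusted p = 0.047), and with a filter at 0.1 RPKM the same change had adjusted p = 0.00307. Without a filter and with a pseudocount of 0.1 it was 3.17 and was not called (limma adjusted p = 0.059).

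Apoe introns were at 186 and 452 RPKM in NPC replicates 1 and 2, and at 140.0 and 122 RPKM in ESC replicates 1 and 2. Both NPC values were higher, but NPC replicate 1 was close to ESC. The means were 319 ± 187 RPKM in NPC and 131 ± 12.8 RPKM in ESC (SD, n = 2 each), from 5722 and 2675 reads. The limma log2 fold change of 1.15 (SE 0.652, adjusted p = 0.166) did not pass. It was 1.84 (adjusted p = 1.11e-12) with the columns scaled by their median ratio and 2.19 (adjusted p = 0.00132) after quantile normalization, and limma called it in both. Leaving out NPC replicate 1 gave 1.78 (limma adjusted p = 0.00278) and leaving out NPC replicate 2 gave 0.51 (limma adjusted p = 0.0534). In both of these fits the lone NPC sample is assumed to vary like the ESC samples, which differed far less between replicates than the NPC samples did, so their p-values leave out the NPC spread. The scaling moved the median log2 fold change of all tested intron genes to 0.07 from -0.43 as deposited, and the share of higher genes among the limma calls to 49.2% from 28.0%. Quantile normalization gave a median of -0.02 and a share of 49.0%. GENCODE M21 lists 11 Apoe transcripts with several starts, so part of what counts as intron here can be exon in another transcript.

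Clu introns had the lowest mean in NPC, although Fabp3 was lower in NPC replicate 2. They were at 0.583 and 0.188 RPKM in NPC replicates 1 and 2, and at 0.601 and 0.711 RPKM in ESC replicates 1 and 2. The groups did not overlap, but NPC replicate 1 and ESC replicate 1 held 38 and 39 reads and differed by less than their counting intervals. The value of NPC replicate 1 lay below the receptor gene level of that replicate. Clu was below the filter, and in limma without a filter its log2 fold change was -0.27 (SE 0.207, adjusted p = 0.38).

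By mean intron level, Apoe and Fabp7 led in NPC, ranking 6 and 7 among all named genes. Their difference was small beside the spread between the NPC replicates, in which both genes were read. Apoe lay above Fabp7 in NPC replicate 1 (186 against 156 RPKM) and in NPC replicate 2 (452 against 425 RPKM), which was not tested. Fabp5 (4.77 ± 3.81 RPKM), Acsbg1 (1.06 ± 0.0174 RPKM), Fabp3 and Clu (0.386 ± 0.279 RPKM) followed in NPC (SD, n = 2 each). Of these neighbours, Fabp5 overlapped no replicate of Acsbg1, while Fabp3 and Clu overlapped. In ESC, Apoe ranked 41 and was followed by Fabp3, Fabp5, Clu, Fabp7 and Acsbg1, and no replicates of neighbours in that order overlapped. That leaves counting error aside, and Fabp7 and Acsbg1 rest on 15 and 20 reads in ESC.

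**Figure D3:**
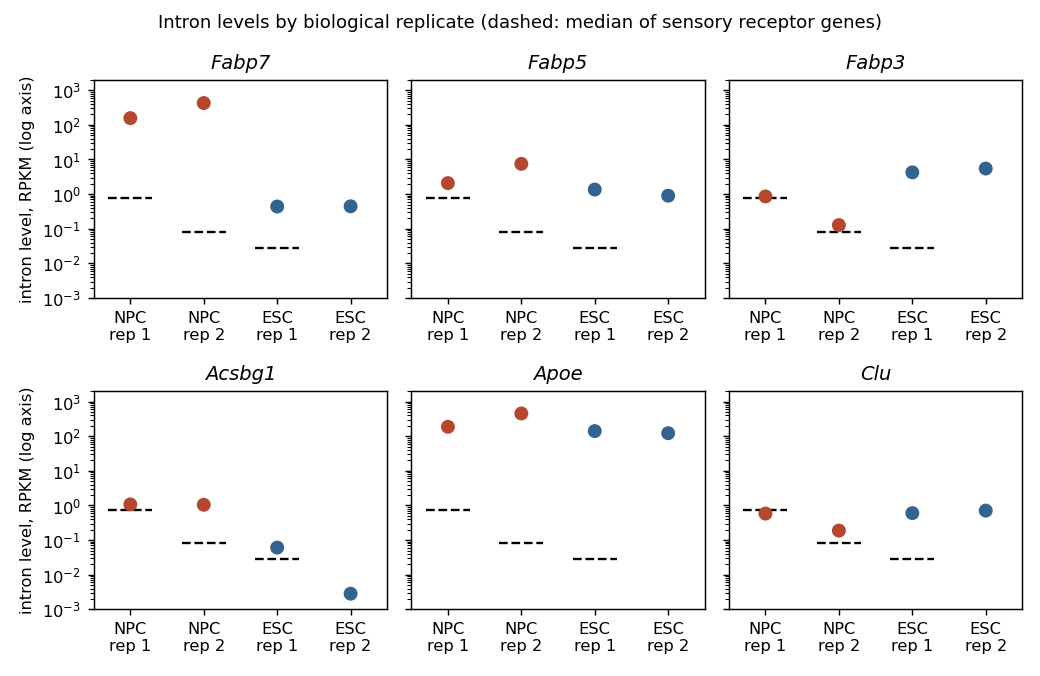
Intron level in RPKM (log axis) of each gene in NPC replicates 1 and 2 (red) and ESC replicates 1 and 2 (blue), 1 point per biological replicate. Dashed lines give the median of 240 sensory receptor genes in the same replicate, which is 0.748 RPKM in NPC replicate 1, and is not drawn for ESC replicate 2, where it is 0.

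Exon and intron differences ran in the same direction for each of the 6 genes. For Fabp7 the log2 ratio of mean intron levels (9.36) was close to the log2 fold change of exons in the deposited table (9.43), and so it was for Apoe (1.28 against 1.47) and Clu (-0.77 against -1.08). For the others the log2 ratio of mean intron levels was smaller in size than the exon change in the deposited table. It was 2.08 against 3.85 for Fabp5, 5.06 against 7.35 for Acsbg1 and -3.30 against -7.60 for Fabp3. No floor was removed from these means. The Fabp3 value in NPC replicate 1 (0.857 RPKM) was near the receptor gene level there (0.748 RPKM). The ESC mean of Fabp3 was 9.87-fold its NPC mean but 38.1-fold the value of NPC replicate 2. For Acsbg1, the NPC mean was 33.3-fold and NPC replicate 2 alone 32.9-fold the ESC mean. Part of the Fabp5 transcript recurs in other genes, so its exon change is uncertain. The differences between exon and intron values were not tested, because exons have no replicates here.

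Promoter windows are shown for Fabp7, Acsbg1 and Apoe, which were higher in NPC, and for Fabp3, which was lower. They come from RefSeq on GRCm38.p6, run from 250 bases before to 50 bases after the start, and read 5′ to 3′ on the strand of the gene. Windows for Fabp5 and Clu are not shown. Capitals mark matches to 1 of 11 motifs, searched on both strands and allowed to overlap. The octamer ATGCAAAT is bound by POU factors, and the Sox core was spelled as ACAAAG. Factors of the nuclear factor I family bind sites with TTGGCA, and the Notch mediator RBPJ binds sites with GTGGGAA. Nuclear receptors bind the repeats DR1 and DR4, in which AGGTCA returns after a spacer of 1 or 4 bases. Of general promoter elements, the TATA box was spelled as TATAAA and the GC box of Sp factors as GGGCGG. The E-box was spelled as CACGTG, the cyclic AMP element of CREB as TGACGTCA, and the AP-1 site of Fos and Jun as TGACTCA.
Fabp7, chr10:57784673-57784972, plus strand: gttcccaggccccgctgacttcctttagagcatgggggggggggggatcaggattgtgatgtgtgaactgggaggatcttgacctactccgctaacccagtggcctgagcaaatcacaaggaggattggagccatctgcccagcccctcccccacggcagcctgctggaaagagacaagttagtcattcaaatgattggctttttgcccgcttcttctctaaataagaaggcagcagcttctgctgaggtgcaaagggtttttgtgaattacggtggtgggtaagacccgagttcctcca
Acsbg1, chr9:54661836-54662135, minus strand: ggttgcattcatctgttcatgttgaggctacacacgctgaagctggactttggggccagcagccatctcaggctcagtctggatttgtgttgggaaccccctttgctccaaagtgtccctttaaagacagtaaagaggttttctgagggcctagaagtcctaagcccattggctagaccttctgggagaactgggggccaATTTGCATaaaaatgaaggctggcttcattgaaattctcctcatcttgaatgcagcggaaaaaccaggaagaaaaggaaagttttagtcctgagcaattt
Apoe, chr7:19699139-19699438, minus strand: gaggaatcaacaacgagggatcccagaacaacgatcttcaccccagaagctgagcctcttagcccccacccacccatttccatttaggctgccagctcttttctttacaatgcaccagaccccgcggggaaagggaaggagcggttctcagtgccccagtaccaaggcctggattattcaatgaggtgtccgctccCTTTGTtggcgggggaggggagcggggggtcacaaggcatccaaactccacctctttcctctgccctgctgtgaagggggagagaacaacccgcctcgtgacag
Fabp3, chr4:130308488-130308787, plus strand: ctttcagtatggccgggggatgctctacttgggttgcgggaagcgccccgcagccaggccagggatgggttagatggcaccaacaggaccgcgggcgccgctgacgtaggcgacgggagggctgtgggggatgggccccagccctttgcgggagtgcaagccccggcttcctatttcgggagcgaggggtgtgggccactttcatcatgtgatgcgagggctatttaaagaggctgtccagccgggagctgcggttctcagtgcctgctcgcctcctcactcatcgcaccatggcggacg
The Acsbg1 window held an octamer on the reverse strand, 50 to 43 bases before the start. An octamer was present in 1.74% of 32851 promoter windows of the same length. The upstream Apoe window held a Sox core on the reverse strand, 54 to 49 bases before the start, as did 18.7% of all windows. Further Apoe windows in RefSeq, not shown, begin downstream of it. The window of the start at chr7:19698621 held a TATA box on each strand, and that of the start at chr7:19698398 held the nuclear factor I motif. The windows of Fabp7 and Fabp3 held none of the 11 motifs as spelled here. A TATA box was found in 13.6% of all windows, a GC box in 35.7%, the nuclear factor I motif in 14.1% and the RBPJ site in 6.38%. The E-box was present in 7.15%, the AP-1 site in 5.2%, the cyclic AMP element in 1.79%, DR1 in 0.0396% and DR4 in 0.0152%. These matches are letters only and no binding was measured.

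The lists around these genes cover what takes up, activates, binds, exports and burns lipids. Each list is read beside what all 12509 tested genes show in the deposited table, a median log2 fold change of -0.07 with 66.2% called. In the list of FABP and retinoid binding relatives, 3 of 7 tested genes were called higher and 4 lower in the authors' deposited table (median -2.46). Crabp1, a carrier of retinoic acid, was at 3.57 RPKM in NPC and 75.0 RPKM in ESC.

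Among 15 tested genes of fatty acid uptake and activation, 8 were called higher and 2 lower in the deposited table (median 0.84). Mfsd2a, a transporter of lysolipids that carry docosahexaenoic acid, was at 21.7 RPKM in NPC and 0.647 RPKM in ESC. The fatty acid transport protein Slc27a1 was at 58.9 RPKM in NPC and 3.68 RPKM in ESC, and the acetyl-CoA synthetase Acss2 at 19.4 RPKM in NPC and 1.35 RPKM in ESC. Called lower were Slc27a2, with 0.408 RPKM in NPC and 35.2 RPKM in ESC, and the long-chain synthetase Acsl1, with 9.58 RPKM in NPC and 22.5 RPKM in ESC. Dbi, the acyl-CoA binding protein, was chosen for mention with its values known. It was at 1787 RPKM in NPC and 176 RPKM in ESC, with a deposited log2 fold change of 3.18.

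Of 13 tested apolipoproteins and genes of lipoprotein assembly, 5 were called higher and 6 lower in the deposited table, with a median of -1.08. Abca1, the pump that loads cholesterol and phospholipid onto Apoe, was at 109 RPKM in NPC and 10.5 RPKM in ESC. Its introns rose too in limma (log2 fold change 1.18, SE 0.218, adjusted p = 0.00116). Apoc1, a small apolipoprotein, was at 1.97 RPKM in NPC and 33.7 RPKM in ESC. Of 16 tested lipoprotein receptors and their helpers, 12 were called higher and 3 lower in the deposited table (median 0.96). They include Scarb1, a receptor of high-density lipoprotein (103 RPKM in NPC and 9.26 RPKM in ESC), Vldlr, a receptor that also binds reelin (20.0 RPKM in NPC and 2.11 RPKM in ESC), Sort1 (76.6 RPKM in NPC and 7.34 RPKM in ESC) and Lrp4 (58.8 RPKM in NPC and 3.24 RPKM in ESC).

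Enzymes that lengthen and desaturate fatty acids were the most one-sided of these lists in exons, with 15 of 16 tested genes called higher and none lower in the deposited table (median 1.47). The desaturases Scd1 (1360 RPKM in NPC and 50.6 RPKM in ESC), Fads1 (389 RPKM in NPC and 32.9 RPKM in ESC) and Fads2 (167 RPKM in NPC and 15.1 RPKM in ESC) led by size, with the elongase Elovl2 (18.7 RPKM in NPC and 3.06 RPKM in ESC). On introns, limma called 5 of 12 tested members higher and 1 lower, against 13.2% higher and 34% lower over all genes tested on introns. Of 24 tested genes of fatty acid oxidation, 15 were called higher and 2 lower in the deposited table (median 0.96), among them the dehydrogenases Acadl (131 RPKM in NPC and 8.72 RPKM in ESC) and Acadvl (101 RPKM in NPC and 20.9 RPKM in ESC), the peroxisomal oxidase Acox3 and the peroxisomal transporter Abcd3 (128 RPKM in NPC and 24.8 RPKM in ESC). Of 12 tested genes of lipid droplets and lipolysis, 7 were called higher and 2 lower in the deposited table (median 0.98). G0s2, an inhibitor of lipolysis, was at 64.9 RPKM in NPC and 2.67 RPKM in ESC. The droplet coat genes Plin2 (5.02 RPKM in NPC and 30.2 RPKM in ESC) and Plin3 (26.4 RPKM in NPC and 71.5 RPKM in ESC) were the pair called lower.

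**Figure D4:**
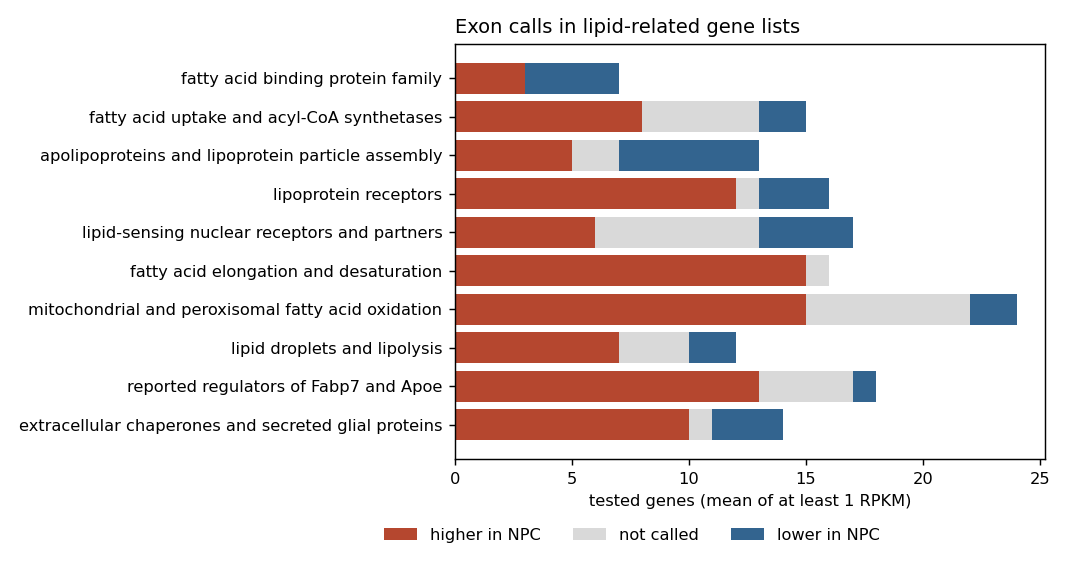
Number of tested genes in each of 10 lists that the authors' deposited table called higher in NPC (red), lower in NPC (blue) or did not call (grey) at an adjusted p of 0.05. The list of elongation and desaturation has 15 of 16 genes called higher, and the lists overlap in a few genes, among them Clu.

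Of the lipid-sensing nuclear receptors and their partners, 6 of 17 tested genes were called higher and 4 lower in the deposited table (median 0.43). The coactivator Ppargc1a was at 23.8 RPKM in NPC and 0.0932 RPKM in ESC, and the retinoic acid receptor Rarb at 29.1 RPKM in NPC and 0.182 RPKM in ESC. The sterol regulators Srebf1 (62.3 RPKM in NPC and 18.6 RPKM in ESC) and Srebf2 (54.9 RPKM in NPC and 30.9 RPKM in ESC) were also called higher, while Rarg (10.4 RPKM in NPC and 71.7 RPKM in ESC) and the corepressor Ncor1 (62.2 RPKM in NPC and 87.6 RPKM in ESC) were called lower. The oxysterol receptors Nr1h2 and Nr1h3, known regulators of Apoe and Abca1, were not called, with adjusted p = 0.447 and adjusted p = 0.241 in the deposited table.

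Factors that earlier work has tied to the control of Fabp7 or Apoe were tested in 18 cases, of which the deposited table called 13 higher and 1 lower (median 3.66). Hes5, a target of Notch signalling, was at 74.8 RPKM in NPC and 0.263 RPKM in ESC. Nfia, of the nuclear factor I family, was at 110.1 RPKM in NPC and 0.534 RPKM in ESC. The POU factors Pou3f2 (49.9 RPKM in NPC and 0.265 RPKM in ESC) and Pou3f3 (102 RPKM in NPC and 0.840 RPKM in ESC) followed. Rbpj, the DNA-binding mediator of Notch, was the gene called lower (7.82 RPKM in NPC and 25.8 RPKM in ESC). On introns, limma called 9 of the 12 tested members of this list higher and 1 lower. Over all genes tested on introns, it called 13.2% higher and 34% lower.

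Clu is one of a set of secreted glial proteins, and most of that set moved against it. Of 14 tested genes, 10 were called higher and 3 lower in the deposited table, with Clu among those called lower, and the median was 2.97. Sparcl1, a matrix protein of astrocytes, was at 816 RPKM in NPC and 2.37 RPKM in ESC. Serpine2, a protease inhibitor, was at 906 RPKM in NPC and 18.3 RPKM in ESC, Ptgds, a prostaglandin synthase and lipid carrier, at 66.3 RPKM in NPC and 0.464 RPKM in ESC, and the granin Scg3 at 19.1 RPKM in NPC and 1.37 RPKM in ESC.

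Markers were read as a check of the labelled cell types. All 12 ESC markers were called lower in NPC in the deposited table, among them Dppa5a, Pou5f1, Tdgf1 and Zfp42, and all 12 tested markers of neural progenitors were called higher, among them Vim, Olig2, Slc1a3 and Nes. Summed exon levels of markers of other cells were as follows. Astrocyte markers summed to 1026 RPKM in NPC and 115 RPKM in ESC, with 8 of 10 tested called higher and 1, Gja1 (named with its values known), called lower. Neuron markers summed to 479 RPKM in NPC and 336 RPKM in ESC, with 2 of 8 tested called higher and 5 lower. Oligodendrocyte markers summed to 270.4 RPKM in NPC and 29.6 RPKM in ESC, most of it Cnp, with 2 of 4 tested called higher and 1 lower. Of the markers of fibroblasts, the feeder cells of the ESC cultures, 8 of 14 were called lower and 2 higher. Over all tested genes, 33.9% were called lower and 32.3% higher. The fibroblast markers summed to 62.1 RPKM in NPC and 191 RPKM in ESC. Macrophage and microglia markers, cells that make Apoe as well, summed to 9.10 RPKM in NPC and 14.3 RPKM in ESC, with C1qa and Trem2 listed at 0 in NPC. Markers of adipocytes summed to 3.55 RPKM in NPC and 1.97 RPKM in ESC, those of choroid plexus and ependyma to 6.72 RPKM in NPC and 74.2 RPKM in ESC, and those of endothelium and blood to 6.30 RPKM in NPC and 60.3 RPKM in ESC. Several sums rest on few genes, named with their values known. In ESC these were Folr1 (46.2 RPKM) and Otx2 (25.5 RPKM) for choroid plexus and ependyma, and Pecam1 (45.4 RPKM) for endothelium and blood. Fn1 (98.4 RPKM) led the fibroblast sum in ESC and Gja1 (99.7 RPKM) the astrocyte sum in ESC. Map2 (371 RPKM) led the neuron sum in NPC. Such sums do not tell how many cells of a type are present. The part of other cells in the values of the lipid genes was not tested.

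Since the study deals with chromosome folding, the genes listed next to each lipid gene are given with their distance between starts on mm9. Smpdl3a, a phosphodiesterase gene 9.62 kb from Fabp7 (start chr10:57504729, plus strand), was at 21.3 RPKM in NPC and 0.707 RPKM in ESC, with a deposited log2 fold change of 4.73 (adjusted p = 1.43e-23). Its introns were at 4.35 and 11.9 RPKM in NPC replicates 1 and 2 and at 0.190 and 0.0893 RPKM in ESC replicates 1 and 2. Serinc1, 252 kb to the other side of Fabp7, was at 162 RPKM in NPC and 67.5 RPKM in ESC. Smpdl3a thus changed with Fabp7, at a level far below it.

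Around Apoe (start chr7:20284515, minus strand) the tested neighbours changed in the opposite direction to it. Apoc1, 6.57 kb away, and Tomm40, a mitochondrial import gene 16.1 kb away with 10.6 RPKM in NPC and 39.96 RPKM in ESC, were called lower in the deposited table (log2 fold changes -4.00 and -2.01). Pvrl2, 50.4 kb away, was called lower as well (-0.78, adjusted p = 0.0127). Introns of Tomm40 were at 1.58 and 3.09 RPKM in NPC replicates 1 and 2, and at 11.8 and 11.5 RPKM in ESC replicates 1 and 2.

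Fabp5 (start chr3:10012606, plus strand) lies 171 kb from Pmp2 and 185 kb from Fabp9, both of its own family. Pmp2 was at 1.34 RPKM in NPC and 0.0658 RPKM in ESC and Fabp9 at 1.05 RPKM in NPC and 0.188 RPKM in ESC, both under the filter. On its other side, Pag1, 308 kb away, was at 9.88 RPKM in NPC and 1.04 RPKM in ESC (deposited log2 fold change 3.08). Next to Fabp3 (start chr4:129986022, plus strand), Snrnp40, a splicing factor gene 51.4 kb away, was called lower in the deposited table (-2.19). Zcchc17, which shares some 50-base stretches with Fabp3, was not called (0.48, adjusted p = 0.108). Acsbg1 (start chr9:54509692, minus strand) has Dnaja4 37.5 kb away, called higher in the deposited table (1.72), and Idh3a 75.4 kb away, called lower (-1.29). Cib2, 102 kb from Acsbg1, was called higher (3.96). Near Clu (start chr14:66587320, plus strand), Gulo, 40.7 kb away, and Ccdc25, 131 kb away, were called lower in the deposited table (-3.68 and -1.41).

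**Figure D5:**
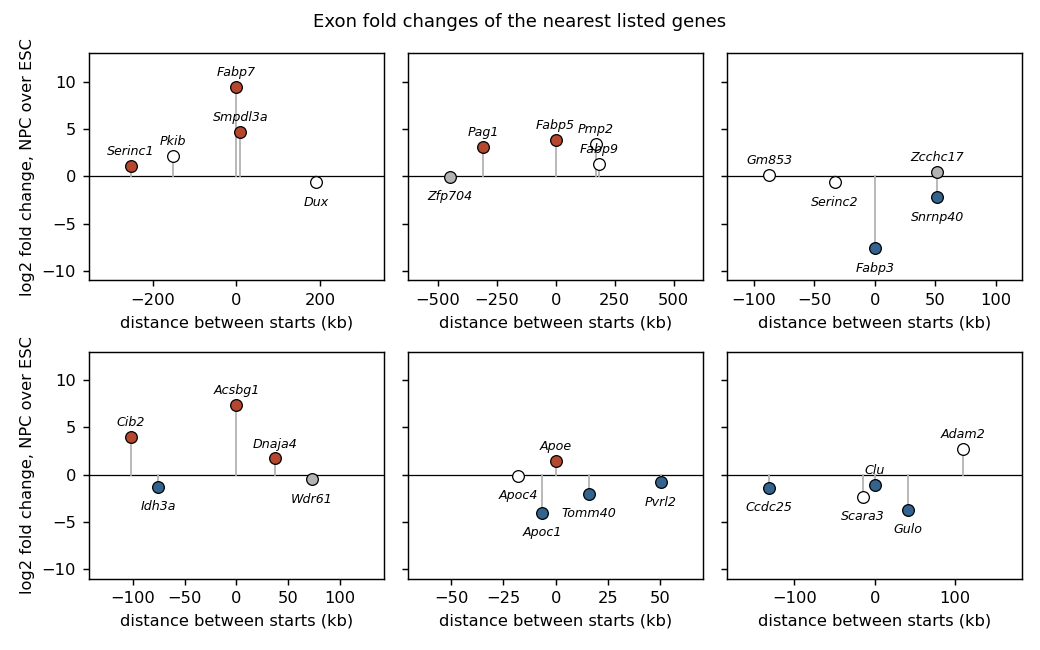
Deposited log2 fold change of NPC over ESC (vertical axis) for each lipid gene, at 0 kb, and for the listed genes on each side of it, by distance between starts in kb (negative towards lower mm9 coordinates). Red and blue points were called higher and lower in NPC, grey points were tested and not called, and white points lay below 1 RPKM on average or had no adjusted p. Apoe stands at 1.47 between neighbours at -4.00 and -2.01.

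Genes with the most similar levels were sought over 6 columns, the log2(RPKM + 1) of the 2 exon and 4 intron columns, among 17965 genes in both tables. These distances describe likeness over 2 cell types only. Fabp3 was closest to Inpp5d (distance 0.268), Gpa33 (0.419) and Zfp819 (0.448). Acsbg1 was closest to Sspn (0.214), Cdh19 (0.566) and 1500015O10Rik (0.572), and Clu to Tmem41a (0.2996), Napepld (0.383) and Fam81a (0.391). Fabp5 was closest to Adhfe1 (0.780), Fbxo44 (0.866) and 0610040B10Rik (0.896). Fabp7 and Apoe had no near match: the nearest genes were Fos (4.67), Ckb (5.295) and Egr1 (5.41) for Fabp7, and Actb (2.09), Srsf5 (2.53) and Eef1a1 (2.86) for Apoe.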

How the data were processed

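Per the labels' protocols, total RNA was freed of ribosomal RNA with Ribo-Zero, made into ScriptSeq v2 libraries and read as 50 bp single ends. The submitters' processing notes list mm9 and DESeq2 1.10.0. No source used here names the aligner, the counting program, the strand setting or the gene models.

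The authors deposited an exon table with a log2 fold change and an adjusted p-value of NPC over ESC and RPKM pooled per cell type, which were used as they stand. Of its 20596 rows, 84 had no name. The authors also deposited intron values per biological replicate with technical libraries combined, whose unit, RPKM, was inferred. Whole reads were recovered from these values within 0.001 reads. Exon depth is unknown. Intervals and floors cover counting error only.

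Introns were tested with limma 3.58.1 (R 4.3.3) on log2(RPKM + 1), with its mean-variance trend and Benjamini-Hochberg adjustment over the 8811 genes whose mean reached 1 RPKM. The fit was tried on simulated data with equal spread in both cell types and no raised floor. Those settings differ from the data here, so the trial lends no weight to the intron calls. Replicate numbers pair no samples by the labels. Genes named from lists were called, had a mean of at least 10 RPKM and were among the 4 with the largest change in each direction. A listed gene is not reported here. Named neighbours are the 2 nearest listed genes on each side. From marker lists, the 4 highest in their cell type were named. The lipid genes and the lists were chosen with earlier results of these data known. Sequences were matched by symbol, with promoters found for 4 of the 6 genes. Coordinates of mm9 and GRCm38 were never mixed.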

Additional observations from a re-analysis of the deposited data

How the results depend on the processing

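On exons all 6 genes were called without a filter, 4 of the 4 left at 10 RPKM were called, and the log2 ratio of RPKM gave all 6 the same direction as the deposited fold change. All tested lipid genes kept their intron direction in 15 alternatives. Of 4 tested genes 3 were called on introns, and 1 of 6 without a filter and with a pseudocount of 0.1, a choice made after seeing the data. Fabp7 was called in all 15. Fabp5 lost its call in 7 (adjusted p up to 0.258) and Fabp3 in 2 (up to 0.0855), while Apoe gained it in 3, of which 1 leaves a lone NPC sample. Leaving out each replicate in turn gave 2 to 4 called genes. With the replicate number as a block, 3 were called, and no call of the 4 genes changed. Deviations of same-numbered replicates correlated at 0.0190 across genes. With 2 replicates per cell type this is only 1 value, which cannot tell whether same-numbered samples shared a day or a culture. Over all genes, 4165 intron calls became 3777 with the block, 3709 with limma voom on the recovered reads (added after seeing the data), 1166 without a filter, 1167 without a filter and with a pseudocount of 0.1, 2728 with the receptor gene level subtracted (chosen after seeing the data), 6574 without NPC replicate 2, and 1686 and 1594 without ESC replicates 1 and 2. Of 20 list counts under other filters, 4 moved by over 1.5 times, each with fewer genes tested at 10 RPKM. Depth limits Acsbg1 and Fabp7 in ESC, with 20 and 15 intron reads.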

Other observations

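The wider binding protein family was nearly silent outside the genes described above. Fabp1 (0.835 RPKM in NPC and 0.0892 RPKM in ESC), Fabp2 (0.260 RPKM in NPC and 0.0739 RPKM in ESC), Fabp4, the adipocyte form (0.544 RPKM in NPC and 0.655 RPKM in ESC), Fabp6 (0.143 RPKM in NPC and 0.435 RPKM in ESC) and Fabp12 (0.677 RPKM in NPC and 0.0363 RPKM in ESC) were all below 1 RPKM on average in the authors' exon values and so had no call here. The NPC values of Fabp1, Fabp4 and Fabp12 lay above the median of the sensory receptor genes (0.280 RPKM in NPC). Among the retinoid carriers, Crabp2 was at 0.894 RPKM in NPC and 15.0 RPKM in ESC and Rbp7 at 1.23 RPKM in NPC and 5.63 RPKM in ESC, both called lower in the authors' deposited table. They were named after their values were seen.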
